A study of Homo sapiens with 6 samples.

Results

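The messenger RNAs described here encode the proteins of the cytosolic ribosome and the factors that start, carry on and regulate translation. Members were chosen by gene symbol alone: the ribosomal protein genes of the large (RPL) and small (RPS) subunit, the stalk genes RPLP0, RPLP1 and RPLP2, RPSA, and the symbols that begin with EIF or EEF. Hyphenated symbols and a few individually listed symbols, 11 in all, were left out. Pseudogenes were to be left out too, but none was among the 11. This gave 147 of the 33514 gene symbols in the tables, 84 of ribosomal proteins and 63 of translation factors, and each of the 147 matched 1 gene of GENCODE release 29. RNA came from PC3, a human prostate cancer cell line that derives from a bone metastasis and was grown in RPMI medium with serum. The 3 groups, each of 2 libraries, were untreated cells, cells given 50 µM heme for 2 h and cells given 50 µM heme for 4 h. The labels name no vehicle and do not say whether the replicates were separate cultures. The p-values therefore reflect only how far these libraries scatter, a scatter that may be technical. No number below counts cells or total RNA, so a lower value is a smaller share of the RNA sequenced, and in bulk RNA fewer cells of a kind and less RNA per cell cannot be told apart.

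Ribosomal proteins and translation factors are among the most highly transcribed genes of a growing cell. Initiation begins when eIF2 brings the initiator tRNA to the small subunit together with eIF1, eIF1A, eIF3 and eIF5, and when eIF4F binds the messenger RNA cap; eIF5B then joins the large subunit, and eEF1 and eEF2 carry elongation. Heme is tied to this machinery in red cell precursors, where a lack of heme activates a kinase that phosphorylates eIF2 and slows initiation. Many ribosomal protein and elongation factor messenger RNAs start with a C followed by a run of pyrimidines, the 5′ terminal oligopyrimidine tract, through which mTOR signalling is known to control their translation.

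Depth was close to equal, at 53129375 to 55537611 reads assigned to genes per library. Levels are given in CPM, counts scaled to library size with TMM factors, and comparisons of levels between genes in CPM per kilobase of the principal transcript. The epithelial markers KRT8, KRT18, KRT19, EPCAM and CDH1 together with VIM, which is not an epithelial marker, summed to between 2149 and 2448 CPM per library. That sum alone does not show an epithelial identity. The luminal prostate markers KLK3 and FOLH1 and the globins HBA1, HBA2 and HBB had 0 counts in all 6 libraries, and in the shallowest library a count of 0 leaves room for 0.0565 CPM (3 counts, counting error only). Fold changes are log2 values of edgeR's quasi-likelihood fit with their standard error (SE). A gene is called lower or higher where its Benjamini-Hochberg adjusted p over all 16209 genes tested is under 0.05.

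After 2 h of heme the transcripts of 22 translation factors fell, by up to 0.82 on the log2 scale, among them EIF3J, EIF5, EIF5B, EIF4E and EIF1AX of initiation. Ribosomal protein transcripts lay slightly lower as a class, and few of them passed the threshold. Of 62 factors tested, 22 were lower and 2 higher than in untreated cells. Of 83 ribosomal proteins tested, 14 were lower and 0 higher, and DESeq2 likewise called 0 higher. An unadjusted edgeR p under 0.05, in either direction, was reached by 36 of the 83 and by 6913 of all 16209 genes tested. Over all genes tested, 15.8% were called lower and 15.9% higher in that comparison. The share called lower was thus 35.5% of the factors and 16.9% of the ribosomal proteins, the second of which lay near the share of all genes in this fit. Other fits moved it to both sides. Shares of ribosomal proteins and of all genes were 32.5% and 14.6% with the replicate number as a block, and 26.5% and 15.3% with only the groups compared. They were 7.23% and 12.3% with upper-quartile factors and 8.43% and 11.2% with library totals. After 4 h, 0 of the 145 members tested were called in either direction against untreated cells. The 2 members not tested were RPL10L, with at most 0.159 CPM, and EIF4E1B, with 0 counts.

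**Figure D1:**
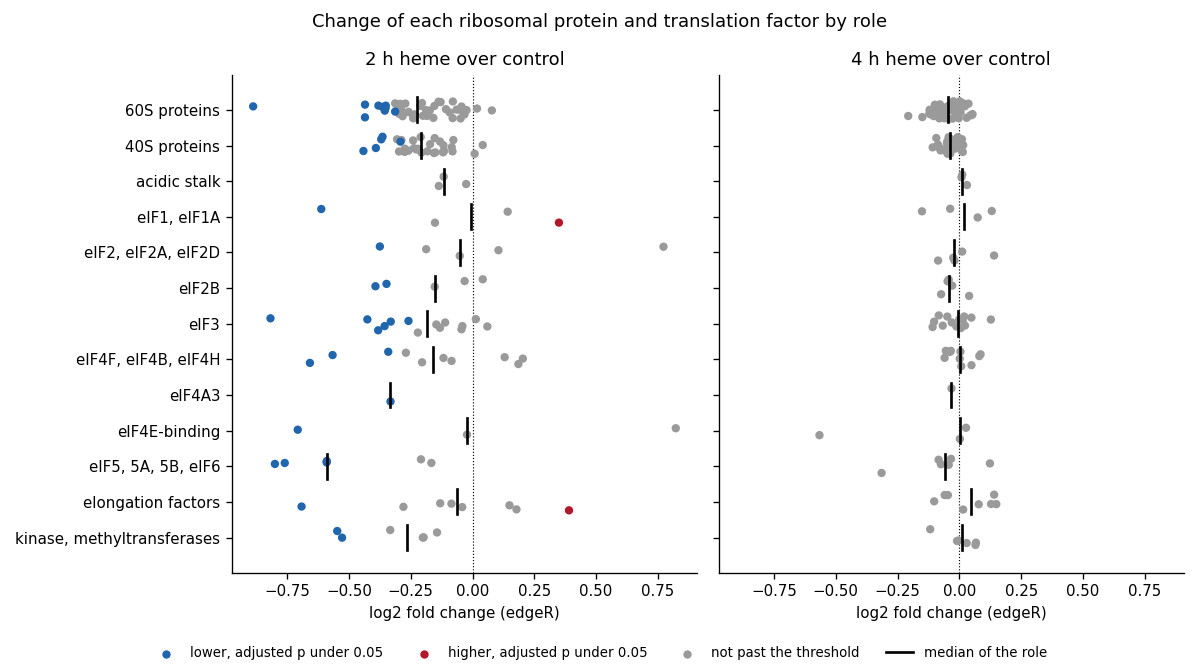
Log2 fold change of each member tested, by role, after 2 h (left) and 4 h (right) of heme over untreated cells. Each point is 1 gene, blue where called lower, red where called higher and grey where not past the threshold, and black bars are medians of a role. At 2 h the points spread to -0.89, and at 4 h none passed the threshold.

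Many of the ribosomal protein genes share a sequence at their start site. RefSeq promoters (GRCh38.p14) were found for 118 members, of which 96 had a single annotated start, 94 of them among the genes tested. A C at the annotated start followed by at least 4 pyrimidines was present in 41 of 55 ribosomal proteins (74.5%) and 11 of 39 factors (28.2%), against 431 of 8118 tested genes with a single start (5.31%). The sequences below hold 15 bases before the start and 15 from the start on, with the pyrimidine run in capitals. They show ribosomal proteins, elongation factors and the initiation factors EIF4B and EIF4A2, which hold the run. Beside them stand EIF3J, EIF5B, EIF4E and EIF1AX, which fell and do not hold it.
RPL22: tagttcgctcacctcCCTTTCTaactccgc
RPL22L1: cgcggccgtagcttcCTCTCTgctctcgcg
RPS6: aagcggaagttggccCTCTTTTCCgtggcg
RPLP0: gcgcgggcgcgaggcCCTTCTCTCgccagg
EEF1A1: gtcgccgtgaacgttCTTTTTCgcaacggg
EEF2: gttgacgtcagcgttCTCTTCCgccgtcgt
EIF4B: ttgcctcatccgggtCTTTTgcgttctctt
EIF4A2: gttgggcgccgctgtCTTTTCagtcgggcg
EIF3J: cacctccgccgtgctaactcctcgctagct
EIF5B: gcgcactgagaactcacaccatatgtgtcc
EIF4E: ccttctggagcggttgtgcgatcagatcga
EIF1AX: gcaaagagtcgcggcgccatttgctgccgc
The coordinates are, in the same order, chr1:6199581-6199610 (minus strand), chr3:170870181-170870210 (minus strand), chr9:19380222-19380251 (minus strand), chr12:120201097-120201126 (minus strand), chr6:73521018-73521047 (minus strand), chr19:3985449-3985478 (minus strand), chr12:53006441-53006470 (plus strand), chr3:186783562-186783591 (plus strand), chr15:44537132-44537161 (plus strand), chr2:99337374-99337403 (plus strand), chr4:98929119-98929148 (minus strand) and chrX:20141824-20141853 (minus strand). RPL22L1 carries the run, as RPL22 does. Among the factors that fell, EIF4A2 does so, as do EIF2A and EIF3M, whose sequences are not shown. EIF3J, EIF5B, EIF4E and EIF1AX do not hold it at the annotated start. Ribosomal proteins with the run had a median log2 change at 2 h of -0.21 and those without it of -0.24. Factors with the run had a median of -0.11, with 3 of 11 called lower, and factors without it a median of -0.33, with 14 of 28 called lower. Over all tested genes with a single start the order was the other way. The median was -0.09 with the run, with 90 of 431 lower, and -0.02 without it, with 1387 of 7687 lower. These are descriptions of annotated starts, and the starts used in PC3 cells were not measured.

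The values of the ribosomal proteins formed a narrow band. Their log2 changes at 2 h had a median of -0.21 and an SD of 0.14 over the 83 genes, and 79 of the 83 values were negative. The median was 0.02 and the SD 0.61 over all genes tested, a set that was not matched to the ribosomal proteins in level. In 51 of the 83 both 2 h libraries lay below both untreated libraries, an ordering that 33.2% of all genes showed. Among the 48 large subunit proteins tested 9 were lower (18.8%), with a median of -0.22. Among the 32 small subunit proteins 5 were lower (15.6%), with a median of -0.21. Both shares lay near the 15.8% of all genes tested that were lower. None of the acidic stalk proteins, RPLP0, RPLP1 and RPLP2, which bind elongation factors to the ribosome, passed the threshold, and their log2 changes lay between -0.14 and -0.03. Levels in untreated cells ran over a wide range per length, with a median of 481 CPM per kb over the ribosomal proteins tested and 46.3 CPM per kb over the factors. The ribosomal protein transcripts used ran from 344 bases for RPS21 to 7686 for RPL37. Reads that align to several places are at 0 in the tables, so levels per length are uncertain.

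RPL22L1, a close copy of the large subunit protein gene RPL22, had the largest fall of all members. It had 41.1 and 44.1 CPM in the untreated libraries, 23.0 and 23.1 CPM after 2 h and 40.9 and 33.0 CPM after 4 h. Both 2 h libraries lay far below both untreated ones, while at 4 h replicate 1 came close to the lower of them and replicate 2 stayed between. The log2 change at 2 h was -0.89 (SE 0.13, n = 2 libraries per group, edgeR adjusted p = 1.72e-04). RPL22L1 (ENSG00000163584.17) lies on chromosome 3 from 170864875 to 170870483 on the minus strand of GRCh38. Its copy RPL22 had 468 and 441 CPM in the untreated libraries, 391 and 382 CPM after 2 h and 478 and 418 CPM after 4 h, and was not called (log2 -0.23, SE 0.09, adjusted p = 0.0711).

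The other 13 ribosomal protein calls were small, with log2 changes between -0.44 and -0.29. They were RPL6, RPL7, RPL21, RPL24, RPL26, RPL26L1, RPL31 and RPL38 of the large subunit and RPS21, RPS26, RPS27A, RPS27L and RPS29 of the small subunit. RPS27A, which is made as a fusion with ubiquitin, had 812.5 and 782 CPM in the untreated libraries, 634 and 583 CPM after 2 h and 849 and 648 CPM after 4 h (log2 at 2 h -0.39, SE 0.11, adjusted p = 0.0169). RPL38, a protein of the large subunit, had 349.9 and 299 CPM in the untreated libraries, 254 and 226.5 CPM after 2 h and 343 and 256 CPM after 4 h (log2 at 2 h -0.43, SE 0.13, adjusted p = 0.0179). In both genes the 2 h libraries lay below the untreated ones and the 4 h libraries overlapped them. The members with the most counts of the large subunit, the small subunit and the stalk were RPL8, RPSA and RPLP0, and none was called. RPL8 had 1613 and 1633 CPM in the untreated libraries, 1706 and 1435 CPM after 2 h and 1699 and 1557 CPM after 4 h, so its groups overlapped. RPSA had 1446 and 1329 CPM in the untreated libraries, 1328 and 1172 CPM after 2 h and 1492 and 1303 CPM after 4 h, a log2 change of -0.15 at 2 h (SE 0.10, adjusted p = 0.258).

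The ribosomal protein calls depended on single libraries. The count called lower was 14 with all 6 libraries, 1 without untreated replicate 1, 9 without untreated replicate 2, 43 without 2 h replicate 1, 9 without 2 h replicate 2, 23 without 4 h replicate 1 and 30 without 4 h replicate 2. RPL22L1 was the gene that passed in each of these fits, and the other 13 all missed the threshold without untreated replicate 1. The share of all genes called lower also differed between these fits, so the counts have no common background. The median log2 change of ribosomal proteins was -0.32 without 2 h replicate 1 and -0.13 without 2 h replicate 2. Within each group, replicate 2 held less ribosomal protein RNA than replicate 1. The ribosomal proteins took 4.83% and 4.65% of gene counts in the untreated libraries, 4.74% and 4.13% after 2 h and 4.98% and 4.38% after 4 h, so the groups overlapped. Replicate 2 lay below replicate 1 for 66 of the 83 genes among untreated libraries, 80 at 2 h and 81 at 4 h. Reads outside annotated genes made up 6.27% and 6.29% in the untreated libraries, 5.87% and 6.88% after 2 h and 5.48% and 6.40% after 4 h, also higher in replicate 2. The part of that difference in the ribosomal protein values was not tested.

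**Figure D2:**
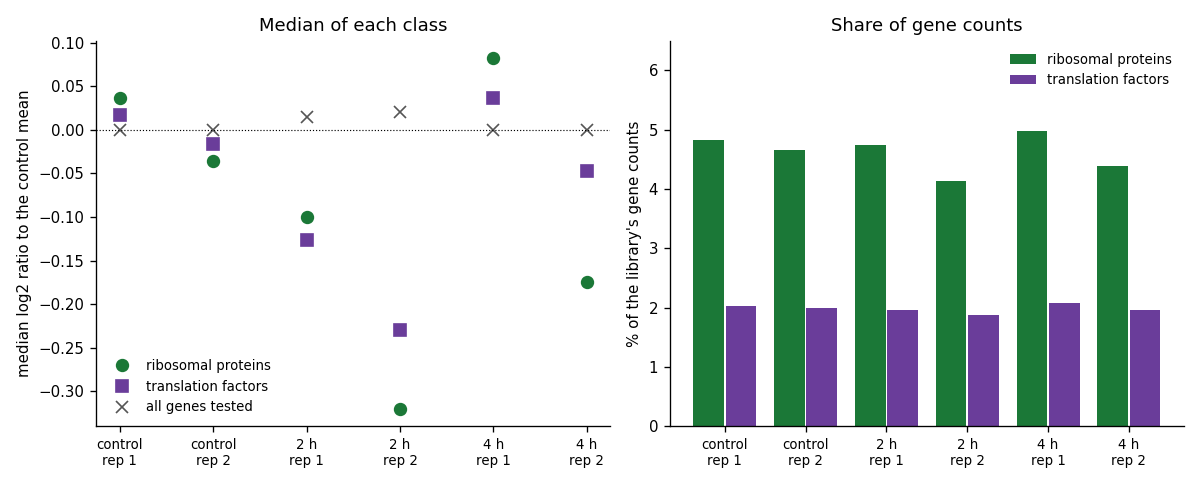
Left, the median log2 ratio of each library to the untreated mean over ribosomal proteins (circles), translation factors (squares) and all genes tested (crosses); right, the share of a library's gene counts taken by both classes, in %. The ribosomal protein median was -0.10 and -0.32 in the 2 h libraries, and the share of counts of the 2 h libraries, 4.74% and 4.13%, overlapped that of the untreated ones, 4.83% and 4.65%.

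The factors split more widely among themselves, with an SD of 0.33 around a median log2 change of -0.18 at 2 h. Of the 62 factors tested, 22 were called lower, 12 of them by more than 0.5 on the log2 scale. A call with a fall of that size was reached by 1 of the 83 ribosomal proteins tested and by 7.60% of all genes tested. The count called lower was 11 without untreated replicate 1 and between 15 and 23 when any other library was left out. Without untreated replicate 1, 17.7% of the factors and 6.59% of all genes were called lower. The median per library was 0.02 and -0.02 in the untreated libraries, -0.13 and -0.23 after 2 h and 0.04 and -0.05 after 4 h, so the 2 h libraries lay below the others by this measure.

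The largest falls among the factors concerned the last steps of initiation and a loosely bound part of eIF3. EIF3J, a subunit of eIF3 that is only loosely attached to the complex, had 237 and 227 CPM in the untreated libraries, 120.5 and 143 CPM after 2 h and 250.5 and 204 CPM after 4 h. Both 2 h libraries lay far below the untreated range, which the 4 h libraries enclosed. The log2 change at 2 h was -0.82 (SE 0.12, edgeR adjusted p = 1.54e-04), or 1.76-fold lower. EIF5, which makes eIF2 hydrolyse its GTP when the start codon is found, had 713 and 670.3 CPM in the untreated libraries, 358 and 437 CPM after 2 h and 696 and 609 CPM after 4 h (log2 at 2 h -0.80, SE 0.11, adjusted p = 1.09e-04). EIF5B, the GTPase that joins the subunits, had 235 and 223 CPM in the untreated libraries, 125 and 146 CPM after 2 h and 249 and 196 CPM after 4 h (log2 at 2 h -0.76, SE 0.12, adjusted p = 3.31e-04). In EIF5 and EIF5B as in EIF3J, 2 h replicate 1 was the lowest of the 6 libraries. EIF3J (ENSG00000104131.12) lies on chromosome 15 from 44537057 to 44563029 on the plus strand. EIF5 (ENSG00000100664.10) lies on chromosome 14 from 103333544 to 103345025 on the plus strand. EIF5B (ENSG00000158417.10) lies on chromosome 2 from 99337353 to 99401326 on the plus strand.

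Other members of that last role were EIF5A, EIF5A2, EIF5AL1 and EIF6. EIF5A carries the modified lysine hypusine and helps stalled ribosomes on; EIF5A2 is its less widely expressed copy. EIF5A2 had 46.6 and 44.3 CPM in the untreated libraries, 24.7 and 35.7 CPM after 2 h and 53.0 and 46.1 CPM after 4 h (log2 at 2 h -0.59, SE 0.15, adjusted p = 0.00831). EIF5A had 808 and 804 CPM in the untreated libraries, 671 and 723 CPM after 2 h and 764.5 and 765 CPM after 4 h (log2 at 2 h -0.21, adjusted p = 0.0777). EIF5A lay lower in both 2 h libraries without passing the threshold. EIF5AL1 was called lower at a level of 6.03 and 5.45 CPM in the untreated libraries, and it missed the threshold in 4 of the 14 alternative fits. EIF6, which keeps the subunits apart, had a log2 change of -0.17 (SE 0.10, adjusted p = 0.199).

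**Figure D3:**
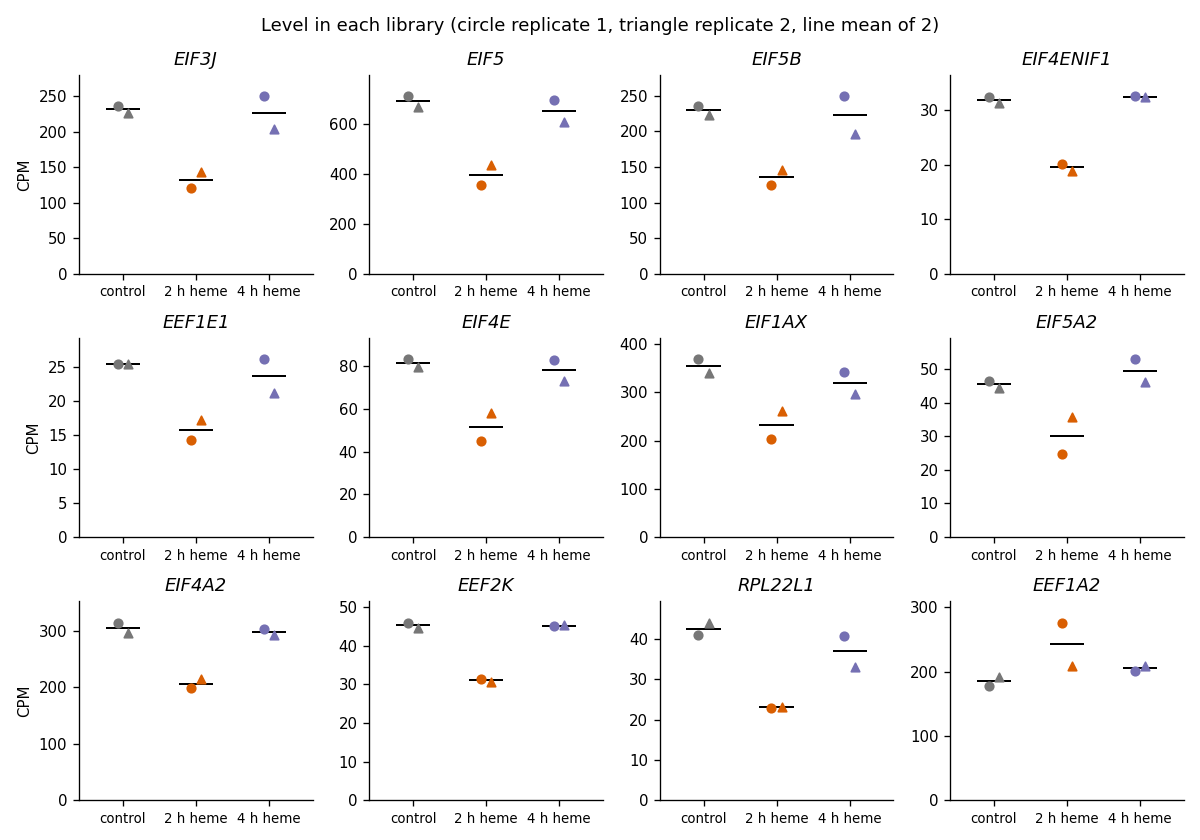
CPM of 12 members in each library, with untreated, 2 h and 4 h libraries from left to right on axes that start at 0; circles are replicate 1, triangles replicate 2 and lines the mean of 2. In the 11 members called lower the 2 h points lie below the untreated ones, as in EIF5 with 358 and 437 CPM after 2 h, and in EEF1A2 they lie above.

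Of the 14 eIF3 subunits tested 6 were lower (42.9%, against 15.8% of all genes tested) and 0 higher (against 15.9%). Besides EIF3J these were EIF3A, EIF3B, EIF3E, EIF3H and EIF3M, with log2 changes between -0.43 and -0.26. EIF3M had 246 and 239 CPM in the untreated libraries, 180.1 and 181 CPM after 2 h and 244 and 208 CPM after 4 h (log2 at 2 h -0.43, SE 0.10, adjusted p = 0.00483). EIF3E, the subunit with the highest level per length (411.5 CPM per kb in untreated cells), had 647 and 623 CPM in the untreated libraries, 466 and 509 CPM after 2 h and 682.5 and 545 CPM after 4 h (log2 at 2 h -0.38, SE 0.11, adjusted p = 0.0142). The 2 h libraries of both genes lay below all other libraries. Under the length and GC correction EIF3E, EIF3H and EIF3M were not called. EIF3C, EIF3CL, EIF3D, EIF3F, EIF3G, EIF3I, EIF3K and EIF3L were not called, with log2 changes between -0.22 and 0.06. Subunits of 1 complex thus had unlike values in the same libraries, as EIF3G had 293 and 307 CPM in the untreated libraries, 328 and 255 CPM after 2 h and 299 and 296 CPM after 4 h. All 5 of the smaller eIF3 falls missed the threshold without untreated replicate 1.

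In the first steps of initiation the calls were few and of both signs. EIF1AX, the X-linked gene of eIF1A, which promotes scanning, had 369 and 340.3 CPM in the untreated libraries, 204 and 260.5 CPM after 2 h and 341.5 and 297 CPM after 4 h (log2 at 2 h -0.61, SE 0.12, adjusted p = 0.00142). EIF1, which guards the choice of start codon, had 865 and 897 CPM in the untreated libraries, 1048 and 896 CPM after 2 h and 898 and 818 CPM after 4 h, and its groups overlapped. Its close copy EIF1B was 1 of the 2 members called higher, with 40.7 and 42.2 CPM in the untreated libraries, 54.5 and 51.0 CPM after 2 h and 46.6 and 40.5 CPM after 4 h (log2 at 2 h 0.35, SE 0.11, adjusted p = 0.0285). That call was lost without untreated replicate 1, without untreated replicate 2, without 2 h replicate 1 and with no filter on low counts, with adjusted p up to 0.23. EIF1AD had a log2 change of -0.15 (SE 0.10, adjusted p = 0.27).

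The eIF2 subunits in the set did not pass. EIF2S2, the beta subunit, had 456 and 412 CPM in the untreated libraries, 371 and 392 CPM after 2 h and 462 and 356 CPM after 4 h (log2 at 2 h -0.19, SE 0.11, adjusted p = 0.226). EIF2S3, the gamma subunit that binds GTP, had 582 and 580.3 CPM in the untreated libraries, 532 and 589 CPM after 2 h and 592 and 550.3 CPM after 4 h, with overlapping groups. EIF2A, a separate factor that can also carry initiator tRNA, was lower, with 219 and 201 CPM in the untreated libraries, 158 and 166 CPM after 2 h and 233 and 190.3 CPM after 4 h (log2 at 2 h -0.37, SE 0.11, adjusted p = 0.0161, but 0.159 without untreated replicate 1). eIF2B, the exchange factor that reloads eIF2 with GTP, had 2 of its 5 subunits lower. EIF2B1, the alpha subunit, had 97.8 and 98.5 CPM in the untreated libraries, 75.0 and 74.6 CPM after 2 h and 93.8 and 92.8 CPM after 4 h (log2 at 2 h -0.39, SE 0.09, adjusted p = 0.00629). EIF2B3, the gamma subunit, had a log2 change of -0.35 (SE 0.11, adjusted p = 0.0212). Both missed the threshold when either untreated library was left out. EIF2B5, the catalytic epsilon subunit, had 103 and 90.4 CPM in the untreated libraries, 97.3 and 91.6 CPM after 2 h and 91.8 and 97.4 CPM after 4 h, and the groups overlapped.

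Among the genes of eIF4F and its helpers, the cap-binding protein and both eIF4A helicases were lower and the scaffolds were not called. EIF4E, which binds the cap, had 83.2 and 79.6 CPM in the untreated libraries, 45.1 and 58.1 CPM after 2 h and 83.0 and 73.2 CPM after 4 h. Both 2 h libraries lay below the other 4. The log2 change at 2 h was -0.66 (SE 0.12, edgeR adjusted p = 0.00125). EIF4E (ENSG00000151247.12) lies on chromosome 4 from 98871684 to 98930637 on the minus strand. EIF4A2, an RNA helicase that unwinds leaders, had 314.5 and 296 CPM in the untreated libraries, 198 and 215 CPM after 2 h and 303 and 292 CPM after 4 h (log2 at 2 h -0.57, SE 0.09, adjusted p = 4.59e-04). EIF4A1, its copy, had 207 and 205 CPM in the untreated libraries, 162 and 163 CPM after 2 h and 207 and 189 CPM after 4 h (log2 at 2 h -0.34, SE 0.09, adjusted p = 0.0122, but not past the threshold when either untreated library was left out). EIF4A3, the related helicase that stays on spliced RNA in the exon junction complex, had 213 and 218.5 CPM in the untreated libraries, 177 and 164.5 CPM after 2 h and 212 and 209 CPM after 4 h (log2 at 2 h -0.34, SE 0.09, adjusted p = 0.0124, likewise lost when either was left out).

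The scaffold genes differed from one another in sign without passing. EIF4G1 had a log2 change of -0.12 (SE 0.08, adjusted p = 0.31), EIF4G2 of -0.20 (SE 0.09, adjusted p = 0.101) and EIF4G3 of 0.20 (SE 0.10, adjusted p = 0.142). EIF4ENIF1, which carries eIF4E into the nucleus and represses its bound messages, had 32.5 and 31.2 CPM in the untreated libraries, 20.1 and 18.9 CPM after 2 h and 32.5 and 32.3 CPM after 4 h. Replicates lay close together and the 2 h libraries well below the rest. The log2 change at 2 h was -0.71 (SE 0.12, edgeR adjusted p = 4.84e-04). EIF4EBP2, a repressor that competes with eIF4G for eIF4E, had 213 and 208 CPM in the untreated libraries, 204 and 211 CPM after 2 h and 208 and 214 CPM after 4 h, and the groups overlapped. EIF4EBP3 had at most 13 counts per library, and a read-through transcript with the neighbouring ANKHD1 had between 163 and 270, so its values are uncertain.

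Of 8 elongation factors tested 1 was lower and 1 higher (12.5% each), and of 6 enzymes that modify them 2 were lower (33.3%). All genes tested had 15.8% lower and 15.9% higher. EEF1A1, which brings aminoacyl-tRNA to the ribosome, had 3423 and 3083 CPM in the untreated libraries, 3106 and 2837 CPM after 2 h and 3578 and 2997 CPM after 4 h, with overlapping groups. EEF1A2, the form best known from muscle and neurons, was the other member called higher, with 178 and 191.5 CPM in the untreated libraries, 276 and 208 CPM after 2 h and 201 and 208.5 CPM after 4 h. Much of that rise lay in 2 h replicate 1. The log2 change at 2 h was 0.39 (SE 0.12, edgeR adjusted p = 0.0212), and the call was lost without untreated replicate 1, without untreated replicate 2, without 2 h replicate 1 and under the length and GC correction, with adjusted p up to 0.465. EEF2, the translocase, had 2147 and 2101 CPM in the untreated libraries, 2635 and 2171 CPM after 2 h and 2290.0 and 2195 CPM after 4 h (log2 at 2 h 0.18, SE 0.10, adjusted p = 0.174). EEF1E1, in spite of its symbol a scaffold of the multi-tRNA synthetase complex, had 25.5 and 25.4 CPM in the untreated libraries, 14.3 and 17.2 CPM after 2 h and 26.2 and 21.3 CPM after 4 h (log2 at 2 h -0.69, SE 0.14, adjusted p = 0.0021). EEF1G had only 2.66 and 2.39 CPM in the untreated libraries; reads that align to several places are at 0 in the tables, so genes with processed pseudogenes may be undercounted.

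EEF2K, the kinase that inhibits eEF2, had 46.0 and 44.6 CPM in the untreated libraries, 31.4 and 30.6 CPM after 2 h and 45.0 and 45.3 CPM after 4 h (log2 at 2 h -0.55, SE 0.11, edgeR adjusted p = 0.00175). EEF2KMT, a lysine methyltransferase of eEF2, had 33.5 and 33.7 CPM in the untreated libraries, 22.9 and 23.7 CPM after 2 h and 31.9 and 34.8 CPM after 4 h (log2 at 2 h -0.53, SE 0.12, adjusted p = 0.00344). The 4 h libraries of both genes lay at or close to the untreated level. The methyltransferases of eEF1A, EEF1AKMT1, EEF1AKMT2, EEF1AKMT3 and EEF1AKMT4, were not called, with log2 changes between -0.33 and -0.14. In all 6 genes of this role both 2 h libraries lay below both untreated ones, an ordering that 62.9% of the factors and 33.2% of all genes showed. All 6 genes of the role of EIF5, EIF5A, EIF5B and EIF6 showed it as well.

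Close copies often differed in their values at 2 h, though the difference within a pair was not tested. Besides the pairs above, RPS27L had 31.2 and 31.9 CPM in the untreated libraries, 22.4 and 24.1 CPM after 2 h and 33.4 and 26.5 CPM after 4 h (log2 at 2 h -0.44, SE 0.13, edgeR adjusted p = 0.0188), and RPS27 was not called (log2 -0.24, SE 0.12, adjusted p = 0.145). RPL7 had 1204 and 1071 CPM in the untreated libraries, 903 and 845 CPM after 2 h and 1224 and 937 CPM after 4 h (log2 at 2 h -0.38, SE 0.11, adjusted p = 0.0207). RPL7L1, a copy that is known to act in ribosome assembly, was not called (log2 -0.19, SE 0.09, adjusted p = 0.127). RPL26 and RPL26L1 were both lower, with log2 changes of -0.43 (SE 0.14, adjusted p = 0.0259) and -0.35 (SE 0.11, adjusted p = 0.0239). RPL39 and RPL39L were not called, at -0.14 (SE 0.11) and 0.08 (SE 0.13), nor was RPL3, at -0.08 (SE 0.10). RPL3L, a muscle form, had at most 0.241 CPM. EIF4E2 was not called (log2 -0.27, SE 0.10, adjusted p = 0.0614), nor was EIF4E3 (log2 0.13, SE 0.13, adjusted p = 0.492). Reads of near-identical copies, such as EIF3C and EIF3CL, could be split or lost by the counting, so their values are uncertain.

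**Figure D4:**
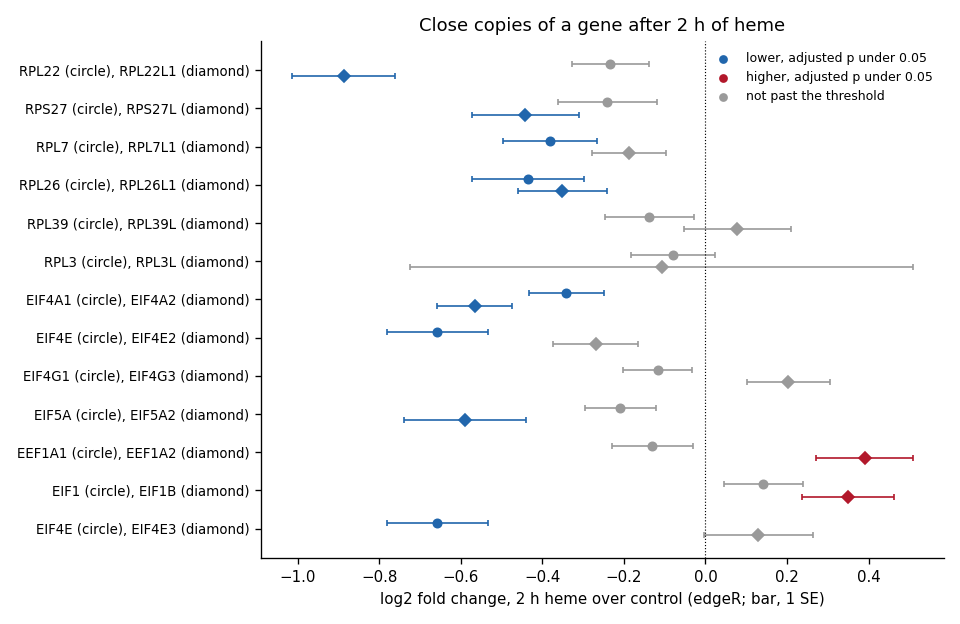
Log2 fold change after 2 h of heme over untreated cells for pairs of close copies among the members, the first gene of a pair as a circle and the second as a diamond, with bars of 1 SE. RPL22L1 at -0.89 lies apart from RPL22 at -0.23, and EEF1A2 at 0.39 from EEF1A1 at -0.13.

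The series is about heme and G-quadruplexes, folds that DNA rich in guanine can form with 4 strands, so the same promoters were searched for 4 runs of at least 3 G with gaps of 1 to 7 bases, on either strand, from 250 bases before the start to 50 after it. The pattern was present in 9 of 39 factors, 6 of 55 ribosomal proteins and 2740 of 8118 tested genes (33.8%). The 9 factors had a median log2 change at 2 h of -0.55 and 6 were lower. Among the 30 factors without it the median was -0.14 and 11 were lower. The order was the other way in the ribosomal proteins. Their median was -0.14 with the pattern, with 2 of 6 lower, and -0.22 without it, with 8 of 49 lower. Over all tested genes with a single start, the order also differed from that of the factors. The median was 0.02 with the pattern, with 427 of 2740 lower, and -0.05 without it, with 1050 of 5378 lower. EEFSEC, EIF2D and EIF4EBP2 held the pattern and were not called. The matches of 5 of the 6 factors that were lower are shown 5′ to 3′ on the strand that carries the G runs, with the runs in capitals, so that their place and make-up can be read.
EIF3J: GGGGGGGGcggaGGGGGGcggaGGGaGGGG
EIF5A2: GGGctgagtGGGGGcGGGtaaGGG
EEF2K: GGGcGGGcaGGGGcGGGG
EEF1E1: GGGGcGGGGctgaGGGcGGGG
EIF2B3: GGGaaggcGGGccggaGGGGGcGGGG
The match of EIF3J lies at chr15:44536936-44536965 on the minus strand, between 211 and 182 bases before the start. The match of EIF5A2 lies at chr3:170908685-170908708 on the minus strand, between 71 and 48 bases before the start. The match of EEF2K lies at chr16:22206254-22206271 on the minus strand, between 24 and 7 bases before the start. The match of EEF1E1 lies at chr6:8102682-8102702 on the plus strand, between 154 and 134 bases before the start. The match of EIF2B3 lies at chr1:44986725-44986750 on the plus strand, between 155 and 130 bases before the start. A match is a run of letters and was not tested for folding or for heme.

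Letters known as binding sites were counted in the same windows on both strands. CACGTG, the E-box that MYC and related factors bind, was found in 13 of 39 factors (33.3%), 3 of 55 ribosomal proteins (5.45%) and 9.97% of all tested genes with a single start. The 13 factors included EIF4E, EIF4B, EIF4A3, EIF4H and EIF5A2. They had a median log2 change of -0.14 with 5 lower, against -0.24 with 12 lower among the other 26. Over all tested genes with a single start the order was the other way. The median was -0.08 with CACGTG, with 181 of 809 lower, and -0.02 without it, with 1296 of 7309 lower. CCGGAAG, a core of ETS family sites, was found in 10 of 39 factors, 18 of 55 ribosomal proteins and 19.8% of all tested genes. TGATGNAA, the core of sites bound by ATF4 and C/EBP proteins, was found in 0 of 39 factors and 2 of 55 ribosomal proteins, against 1.68% of all tested genes.

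The 2 h changes also went with base composition. Split into 3 equal bins of GC content of the principal transcript, ribosomal proteins had a median log2 change of -0.26 in the lowest bin, -0.24 in the middle bin and -0.08 in the highest bin. In those bins 6 of 28, 7 of 28 and 1 of 27 ribosomal proteins were lower. Among the factors the medians were -0.37, -0.20 and -0.10, and 13 of 21, 7 of 21 and 2 of 20 genes were lower. All genes tested showed the same order, with medians of -0.15, 0.01 and 0.19. With 5367 genes in each bin, 1335, 817 and 394 were lower. Spearman's rho between GC content and the change was 0.51 over 83 ribosomal proteins, 0.42 over 62 factors and 0.31 over 16101 genes, as a description across genes that share the same 4 libraries. With a per-library correction for length and GC content, 44 ribosomal proteins and 29 factors were lower, 53.0% and 46.8% of those tested, and 21.3% of all genes were. EIF3E, EIF3H and EIF3M, called lower without the correction, were not among these 29 factors. The part of GC content in the 2 h changes was not otherwise tested.

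**Figure D5:**
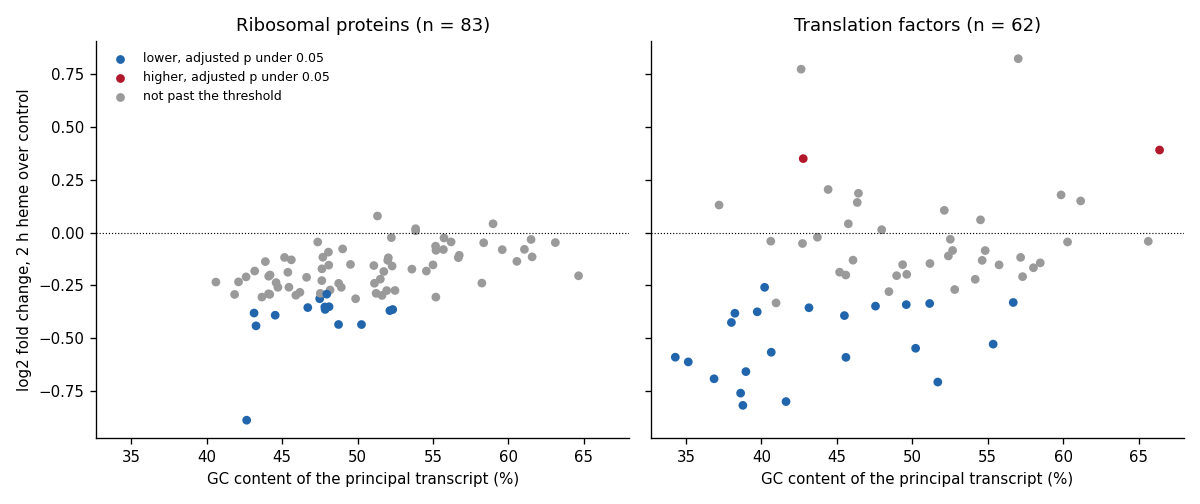
Log2 fold change after 2 h of heme over untreated cells against the GC content (%) of the principal transcript for ribosomal proteins (left, n = 83) and translation factors (right, n = 62); blue points were called lower, red higher, grey neither. The factors with low GC content hold most of the large falls, and Spearman's rho is 0.51 on the left and 0.42 on the right.

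After 4 h of heme the members were near their untreated level. None of 145 was called by edgeR or by DESeq2, and 0 had an unadjusted edgeR p under 0.05. Of all 16209 genes tested, 0.0308% were called, 5 in number, and 583 had an unadjusted edgeR p under 0.05. The median log2 change was -0.04 for ribosomal proteins and -0.01 for factors. Among the 22 factors that were lower at 2 h, the changes at 4 h lay between -0.31 and 0.12, and in 18 of them the 4 h libraries overlapped the untreated ones. Among the 14 ribosomal proteins they lay between -0.21 and -0.01, and in 12 the libraries overlapped. The 4 h replicates differed for ribosomal proteins, with medians of 0.08 and -0.17 relative to the untreated mean, so that the median change at 4 h was 0.09 without replicate 2 and -0.18 without replicate 1.

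Set directly against the 2 h libraries, 26 members were higher at 4 h, 21 factors and 5 ribosomal proteins, and 0 lower by edgeR or DESeq2. An unadjusted edgeR p under 0.05, in either direction, was reached by 44 of 145 members and by 6474 of all 16209 genes tested. Of all genes, 14.0% were higher and 14.1% lower in that comparison, which shares its 2 h libraries with the one above. The share was 33.9% of the factors and 6.02% of the ribosomal proteins. EIF3J was 0.79 higher on the log2 scale at 4 h than at 2 h (SE 0.12, edgeR adjusted p = 2.00e-04), EIF4ENIF1 0.73 higher (SE 0.12, adjusted p = 3.60e-04) and RPL22L1 0.68 higher (SE 0.13, adjusted p = 0.00119). When a library was left out, the share of all genes called higher differed between fits as well. The counts of such fits thus have no common background. The factor count was 9 without 4 h replicate 1 and between 16 and 22 without any other library. The ribosomal protein count was 1 without 4 h replicate 1, 2 without untreated replicate 1, 2 without 2 h replicate 2, 4 without untreated replicate 2, 22 without 2 h replicate 1 and 32 without 4 h replicate 2.

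Translation genes outside the symbol rule were read from a list of 38 partners, all of them tested. At 2 h 11 were lower and 3 higher, with a median log2 change of -0.15, and at 4 h 0 were called against untreated cells by edgeR. Of all genes tested, 15.8% were lower and 15.9% higher at 2 h, with a median of 0.02. The 11 were PABPC4, the release factors ETF1 and GSPT1, ABCE1, which recycles ribosomes, NEMF, which acts on stalled ones, DENR and MCTS1, which act in reinitiation, the messenger RNA binders LARP1 and LARP4, the nascent chain factor NACA and RPL36AL. LARP4 had the largest of these falls (log2 -0.71, edgeR adjusted p = 7.54e-04). The 3 higher genes were signalling genes, MTOR, the eIF4E kinase MKNK2 (log2 0.71, adjusted p = 2.96e-04) and PPP1R15A, which directs a phosphatase to eIF2. The count lower was 4 without untreated replicate 1, 6 without untreated replicate 2, 7 without 2 h replicate 1 and 17 without 2 h replicate 2, and the count higher was 1 without any one of the first 3 of these libraries.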

How the data were processed

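RNA of PC3 cells was sequenced in 6 libraries of 3 groups, taken from the labels. What the authors deposited is 1 table of unnormalized read counts per library, in HTSeq's layout. The submitters' processing notes name hg38, STAR, Trimmomatic, SAMtools and deepTools; their versions, the gene annotation and whether counting used strand were not given in the sources used here, so reads of overlapping and antisense genes cannot be told apart. The 5 summary lines stayed out; reads outside genes made up 5.48% to 6.88%, and ambiguous ones 4.23% to 4.48%.

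Counts were tested with edgeR 4.0.16 (R 4.3.3): TMM, filterByExpr (minimum count 10), the two-sided quasi-likelihood test in a single fit to all 6 libraries (residual degrees of freedom 3; coefficient of biological variation 0.0982) and Benjamini-Hochberg adjustment over 16209 genes. The SE is the fold change divided by the root of F. The code was tested on simulated data. Coordinates, lengths and GC content come from GENCODE 29 (GRCh38; 33192 symbols matched), start sites from RefSeq. Members, lists and tests were chosen with earlier results of these data known, so lists get counts and medians and no test. Per contrast and direction the 10 largest called changes at 2 CPM or more were named, and per role the 2 smallest p at 2 h and the gene with most counts, and all pairs of copies; other genes were chosen with their values in view. As alternatives, the counts were refitted with DESeq2 1.42.0, its size factors, upper-quartile and total scaling, no filter, a replicate block, only the groups compared, a length and GC correction and leaving out each library. The match of 1 further factor is not reported here.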

Additional observations from a re-analysis of the deposited data

Results flagged for a closer look

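In 26 members the change at 4 h differed from that at 2 h, by the edgeR test of 4 h over 2 h (adjusted p under 0.05); all 26 were higher at 4 h. The 10 with the largest such differences, as log2 values of 4 h minus 2 h, were EIF3J at 0.79, EIF4ENIF1 at 0.73, EIF5B at 0.72, EIF5 at 0.72, EIF5A2 at 0.71, RPL22L1 at 0.68, EIF4E at 0.60, EEF1E1 at 0.59, EEF2K at 0.54 and EIF4A2 at 0.53. The calls of EEF1E1 and EIF5A2 were lost without 4 h replicate 1, with adjusted p of 0.0986 and 0.0574. Groups of 2 libraries were too small to search for single libraries that stand apart.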

How the results depend on the processing

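Of the 38 calls at 2 h, 1 of the 14 for ribosomal proteins and 11 of the 24 for factors held under all 14 alternatives, and of those at 4 h over 2 h, 1 of 5 and 9 of 21. Among genes named in the text, 39 combinations of a called gene and an alternative at 2 h and 49 at 4 h over 2 h missed the threshold, and 17 combinations of an uncalled gene passed it.

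Ribosomal proteins called lower at 2 h, 14 in the report, numbered 6 with upper-quartile factors, 7 with library totals, 30 with no filter, 22 with only the groups compared, 44 with the length and GC correction and 24 with DESeq2. Leaving out 1 library gave 1 to 43. At 4 h over 2 h, 5 were called higher, and 8 with DESeq2 size factors, 1 with upper-quartile factors, 1 with library totals, 17 with no filter, 1 with only the groups compared, 40 with the length and GC correction and 10 with DESeq2; leaving out 1 library gave 1 to 32. All members called lower at 2 h, 36 in the report, numbered 73 with the length and GC correction and 12 to 65 without 1 library; no filter gave 54. Members called higher at 2 h, 2 in the report and all of them factors, numbered 4 with library totals, 1 with no filter, 4 with the length and GC correction and 0 to 3 without 1 library. Factors called lower at 2 h numbered 11 to 23 without 1 library.

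At 4 h over 2 h, members called higher, 26 in the report, numbered 15 with upper-quartile factors, 15 with library totals, 40 with no filter, 17 with only the groups compared, 68 with the length and GC correction and 10 to 53 without 1 library; factors, 21 in the report, numbered 9 to 22. Members called lower, 0 in the report and all of them factors, numbered 1 with upper-quartile factors, 1 with library totals, 2 with the length and GC correction and 0 to 2 without 1 library. Partners called lower at 2 h, 11 in the report, numbered 7 with upper-quartile factors, 7 with library totals and 4 to 17 without 1 library; those higher, 3 in the report, numbered 5 with library totals, 1 with no filter and 1 to 4 without 1 library. The median log2 change of factors at 2 h, -0.18, was -0.12 with upper-quartile factors and -0.11 with library totals. Without 1 library it lay between -0.23 and -0.15, and at 4 h between -0.06 and 0.04; that of ribosomal proteins lay between -0.32 and -0.13 at 2 h and between -0.18 and 0.09 at 4 h. The ribosomal protein share of counts differed from untreated libraries by -0.30 percentage points at 2 h, between -0.61 and 0.0046 without 1 library, and by -0.06 at 4 h, between -0.36 and 0.24. The cause of these differences was not tested, apart from the fewer samples.

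With the replicate number as a block, 27 ribosomal proteins were lower at 2 h, 8 were higher at 4 h over 2 h, 1 partner was higher at 2 h, and 50 members in all were lower at 2 h. The labels do not say that a number marks a shared culture. Over all genes tested, the correlation of replicate differences was -0.09 between untreated and 2 h libraries, 0.07 between untreated and 4 h and -0.02 between 2 h and 4 h. Over all genes the numbers were thus not shown to pair the libraries. Of the 83 ribosomal proteins tested, 66 lay lower in replicate 2 than in replicate 1 in every group. Whether the numbers pair the libraries for the members was not tested.

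Genes that changed sign at 2 h were all uncalled. With upper-quartile factors and with library totals, EIF2B5 had log2 changes of 0.027 and 0.038, EIF2S3 of 0.0058 and 0.018, EIF4EBP2 of 0.036 and 0.048, RPL8 of 0.012 and 0.022, and RPLP0 of 0.033 and 0.044. With the length and GC correction EIF2S3 had 0.055 and EIF4EBP2 0.0485. Without 1 library, EIF2B5 lay between -0.14 and 0.059, EIF2S3 between -0.15 and 0.016, EIF4EBP3 between -0.023 and 3.22, RPL3 between -0.22 and 0.022, RPL39L between -0.092 and 0.21, RPL3L between -0.46 and 0.35, RPL8 between -0.18 and 0.0497 and RPLP0 between -0.15 and 0.065. With 2 libraries a group, small changes of ribosomal proteins are uncertain. The part of the spread between replicates and of depth in these sign changes was not tested.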
